A study of Mus musculus with 27 samples.

Results

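Transcripts of the mouse proteasome genes were followed through livers in which Hdac3, Scap or both had been deleted by Cre. The members were the genes whose symbol begins with Psma, Psmb, Psmc, Psmd, Psme, Psmf or Psmg followed by a number and that had any count. There were 49 of them among the 22869 genes of the table. One of these, Psmc3ip, encodes a partner protein in meiotic recombination and only shares the name pattern, which left 48 proteasome genes. Of these, 33 encode subunits of the 26S proteasome and 15 encode immunoproteasome subunits, activators, assembly chaperones or an inhibitor. The filter on low counts was passed by 46 members, of which 31 were 26S subunits. The 3 that did not pass were Psma8, a testis form of an alpha subunit, Psmb11, a thymus form of a beta subunit, and Psmc3ip.

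The proteasome is the protease that degrades proteins tagged with ubiquitin. Its 20S core is a stack of rings, with alpha subunits that gate the channel and beta subunits that hold the proteolytic sites, and its 19S cap has a base of ATPases that unfold substrates and non-ATPase subunits that bind ubiquitin, remove it and hold the cap together. Interferon induces the immunoproteasome subunits, which take the place of the catalytic beta subunits and alter the peptides presented to T cells. When proteasome activity falls short, the transcription factor NRF1, encoded by Nfe2l1, raises the genes of core and cap together.

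The livers came from freely fed C57Bl/6 mice, killed 10 days after they received a gene vector made from adeno-associated virus 8. HDAC3 LKO livers (n = 4 libraries) came from HDAC3 floxed mice given Cre, SCAP LKO livers (n = 4 libraries) from SCAP floxed mice given Cre, and Double LKO livers (n = 3 libraries) from HDAC3/SCAP floxed mice given Cre. The GFP control libraries (n = 6) were 2 from each of these floxed lines given GFP in place of Cre. HDAC3 is the histone deacetylase of a nuclear receptor corepressor complex, and SCAP escorts the SREBP factors, activators of lipid synthesis genes, to the site where they are processed. The sources used here do not give the age, the sex or the promoter that drives Cre. No livers given Cre without a floxed gene were used here, so an effect of Cre and one of gene loss cannot be told apart in the comparisons with GFP controls. Libraries held 5158695 to 8672408 counts over genes in HDAC3 LKO, 3546597 to 7788828 in SCAP LKO, 3736618 to 20622671 in Double LKO and 4747602 to 19316642 in GFP control livers. Double LKO libraries are named here by their column numbers 2, 3 and 4. Of these, library 2, the shallowest, stood apart on the second principal component at 45.8, and SCAP LKO replicate 4 was next at 25.7, against -19.4 to 14.9 in the other libraries. Hdac3 was at 7.46 to 10.6 CPM (read counts scaled to library size with TMM) in HDAC3 LKO and 9.2 to 12.4 in Double LKO, against 34.3 to 40.7 in GFP control livers. Scap was at 43.9 to 59 CPM in SCAP LKO and 45.4 to 50.8 in Double LKO, against 91.2 to 139 in GFP control livers.

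Proteasome transcripts were higher in livers without HDAC3. In HDAC3 LKO livers 23 of the 46 tested members rose and none fell (quasi-likelihood test of edgeR, with p adjusted by Benjamini-Hochberg and called under 0.05), where 7.88% of all 12009 tested genes rose and 6% fell. The median log2 difference of the members was 0.27, against -0.02 over all genes. The rise was modest for each gene, from 0.24 for the lid subunit gene Psmd3 to 0.69 for the alpha subunit gene Psma5 on the log2 scale. In 19 members every HDAC3 LKO library lay above every control library, which was so for 7.49% of all genes. The members are not independent of each other, so counts of members here and below are not separate observations. HDAC3 LKO replicate 1 was the highest of its group in 23 of the 46. HDAC3-floxed control replicate 2 was the lowest of the controls in 21. The calls took in 22 of the 31 tested members that encode 26S subunits and the activator gene Psme1. No immunoproteasome subunit (0 of 3), 19S assembly chaperone (0 of 3), 20S assembly chaperone (0 of 4) or inhibitor gene (0 of 1) passed. That the 26S subunits differ from these small groups was not tested. Since these are whole livers, a change in the cells present and a change in RNA per cell cannot be told apart.

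The count in HDAC3 LKO depended on the controls and the scaling. With the 2 HDAC3-floxed controls alone 7 members passed, with a median log2 difference of 0.30. Calls over all genes fell as well in that fit, to 646, of which 397 were higher, against 946 higher and 720 lower with all 6 controls. When counts were scaled by library size without TMM, the median of all genes moved to -0.12, the median of the members was 0.17 and 9 members passed, still with none lower. In that setting 32% of all 1933 calls were higher, against 946 higher and 720 lower calls with TMM.

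**Figure D1:**
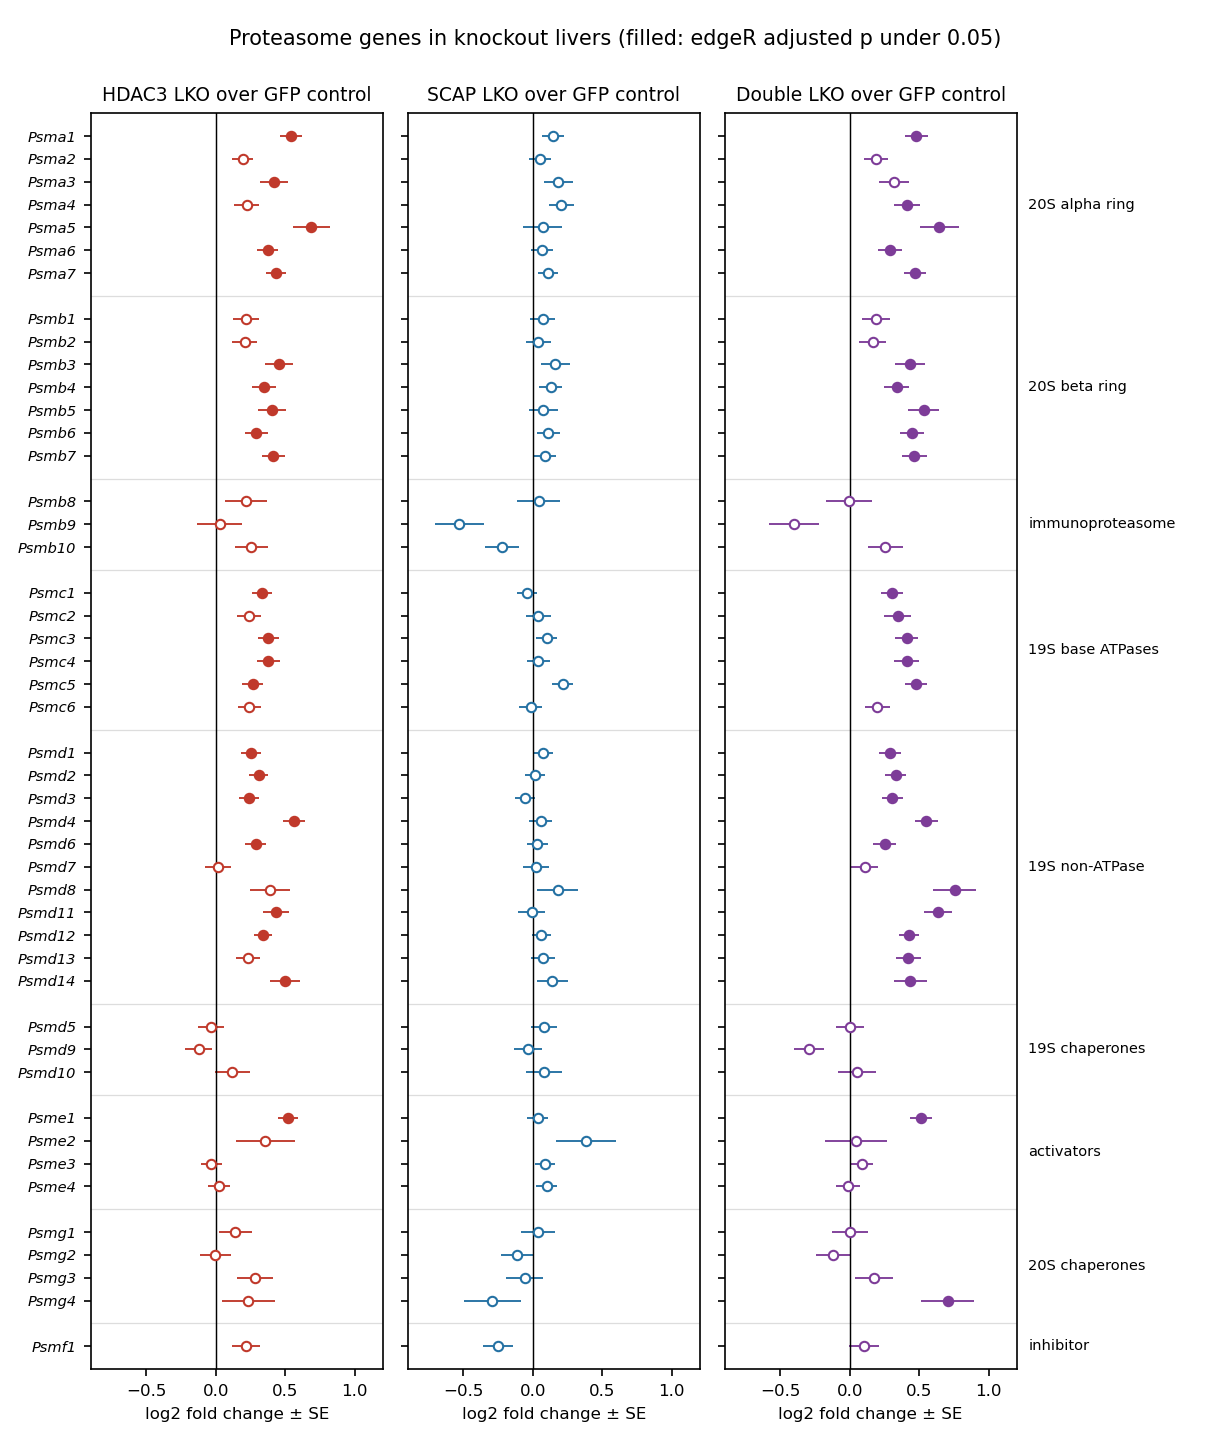
The log2 fold change of each of the 46 tested proteasome genes over GFP control is plotted with its SE for HDAC3 LKO, SCAP LKO and Double LKO livers, by class, with filled points for an edgeR adjusted p under 0.05. Filled points are seen for 23 genes with HDAC3 LKO, none with SCAP LKO and 27 with Double LKO, and 22 and 25 of them are 26S subunits.

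In Double LKO livers 27 of 46 members rose against GFP control and none fell (edgeR, adjusted p under 0.05), where 7.56% of all genes rose and 6.34% fell. The members' median log2 difference was 0.31, against -0.01 over all genes, and 25 of the 31 tested 26S subunits rose. In 27 members every Double LKO library was above every control library, against 7.09% of all genes. Of the members, 22 were higher in both HDAC3 LKO and Double LKO livers, 1 (Psma3) passed in HDAC3 LKO and not in Double LKO, and 5 (Psma4, Psmc2, Psmd8, Psmd13 and Psmg4) passed in Double LKO and not in HDAC3 LKO. Both comparisons use the same 6 controls, so these shared calls are not independent. With the 2 double-floxed controls alone, and so fewer libraries, 12 members passed, with a median log2 difference of 0.32. Calls over all genes fell as well in that fit, to 685, of which 381 were higher, against 908 higher and 761 lower with all 6 controls.

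None of the 46 members passed in SCAP LKO livers against GFP control (edgeR, adjusted p under 0.05), where 1.19% of all genes did, and 4 had an unadjusted p under 0.05. DESeq2 and limma voom called 0 as well. The median log2 difference of the members was 0.06, against 0.01 over all genes, and 35 of the 46 were positive. The lowest adjusted p was 0.211, for Psmb9 (edgeR). For Psmd4, a ubiquitin receptor of the cap, the log2 difference was 0.06 with a 95% interval of -0.11 to 0.22, which lies below the 0.57 of HDAC3 LKO livers. Psmd4 was the member with the lowest p in HDAC3 LKO, and other members differed from it. The intervals of Psmc5 (0.053 to 0.378) and Psma4 (0.016 to 0.395) lay above 0 and included their HDAC3 LKO values of 0.26 and 0.22. These intervals are not adjusted for the number of genes. Among the 26S subunits the upper bounds of these intervals ran from 0.10 for Psmd3 to 0.49 for Psmd8, so small rises were not detectable at this depth and number of libraries.

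Summed over the 33 genes, the 26S subunits made up 2820 ± 103 CPM in HDAC3 LKO (SD, n = 4), 2350 ± 105 in SCAP LKO (n = 4), 2920 ± 81.6 in Double LKO (n = 3) and 2230 ± 143 in GFP control livers (n = 6). The single libraries gave 2950, 2700, 2800 and 2810 CPM in HDAC3 LKO, 2360, 2230, 2490 and 2320 in SCAP LKO, 3010, 2850 and 2890 in Double LKO, and a lowest of 2020 and a highest of 2390 in GFP control livers. All 7 libraries without HDAC3 thus lay above all 10 libraries that kept it, while SCAP LKO and GFP control livers overlapped. The sum is given as a description. Hepatocyte markers, none of 7 called, summed to 118000 to 146000 CPM in HDAC3 LKO, 78700 to 134000 in Double LKO and 126000 to 145000 in GFP control livers. Kupffer cell and macrophage markers, none of 12 called, summed to 401 to 524, 398 to 487 and 298 to 629 CPM in the same groups, and no gene of either list was at 0 in all libraries. The hepatocyte sum of 78700 was in Double LKO library 2, against 134000 and 124000 in libraries 3 and 4. Library 2 also had the highest 26S sum of its group, 3010. That sum includes its Psmd8 value of 251 CPM, against 127 and 127 in libraries 3 and 4. The macrophage sum hides single markers that set library 2 apart from libraries 3 and 4. Cd68 was at 27.6 CPM, against 6.52 and 5.56, and Marco at 37.5, against 6.41 and 8.99. Other macrophage markers went the other way, such as Clec4f (74.7, against 85 and 90.2) and Csf1r (54.3, against 60.1 and 64.9). In SCAP LKO livers the macrophage sum was 399 to 615 CPM, with Marco at 31.2 in replicate 4. The part of these markers and of the low hepatocyte sum of library 2 in the result was not tested. Among 5 stellate cell markers Rgs5 rose in HDAC3 LKO (log2 fold change 0.84, edgeR adjusted p = 0.00325), and its part in the result was not tested.

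**Figure D2:**
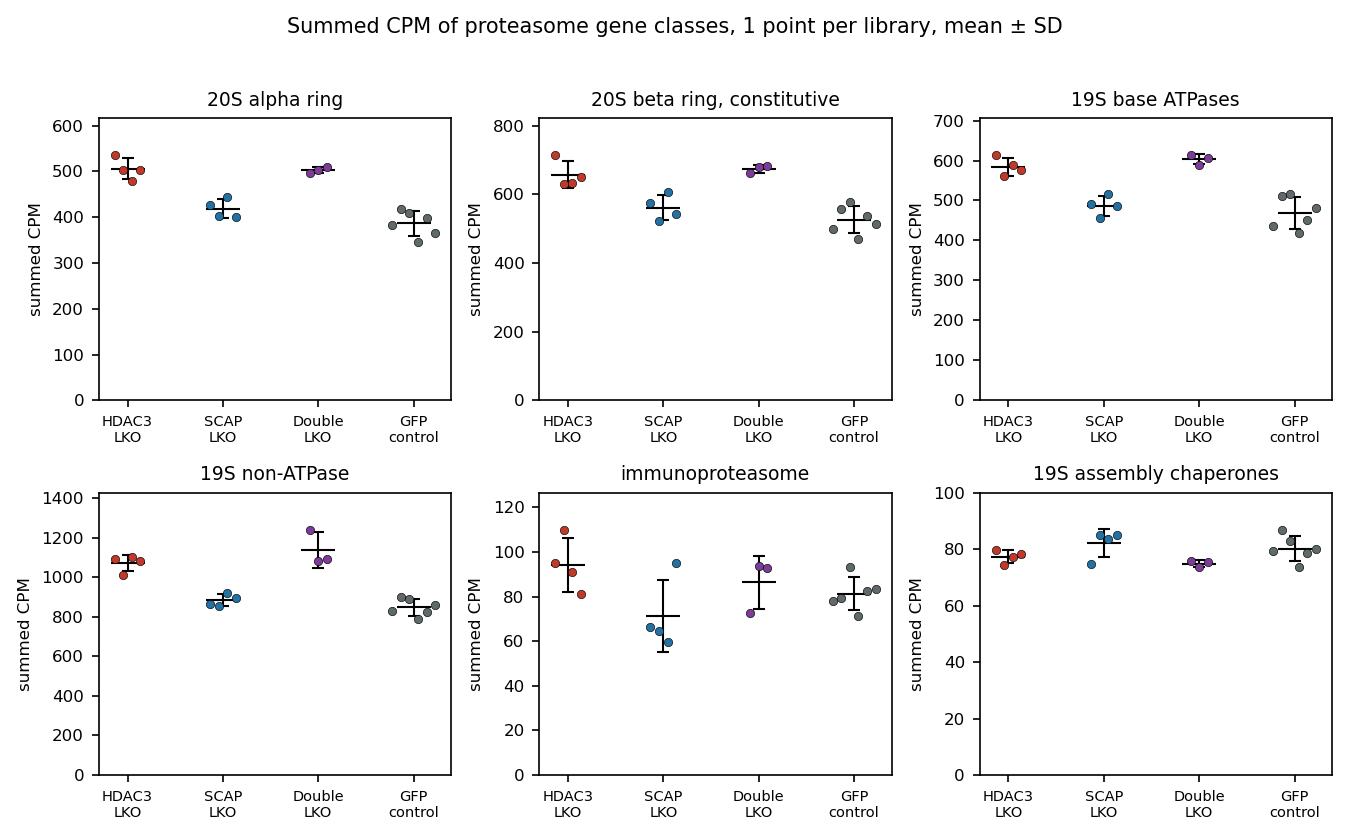
Summed CPM of the genes of 6 proteasome classes is shown for each library of HDAC3 LKO, SCAP LKO, Double LKO and GFP control livers, with the mean and SD as bars. The alpha ring, beta ring, ATPase and non-ATPase sums of livers without HDAC3 sit above those of GFP controls (alpha ring 480 to 536 in HDAC3 LKO and 497 to 509 in Double LKO, against 346 to 417), and the sums of the immunoproteasome and the 19S assembly chaperones overlap.

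Within the alpha ring, 5 of 7 tested genes rose in HDAC3 LKO (Psma1, Psma3, Psma5, Psma6 and Psma7) and 5 in Double LKO livers. Psma1 had 124, 116, 105 and 112 CPM in HDAC3 LKO, 82.8, 82.7, 93.3 and 88.7 in SCAP LKO, 118, 105 and 106 in Double LKO, and a lowest of 67.9, a median of 79.3 and a highest of 87.3 in GFP control livers. Every library without HDAC3 was above every library that kept it, at a log2 fold change over control of 0.54 (SE 0.08, edgeR adjusted p = 0.000121) in HDAC3 LKO and 0.48 (SE 0.08, adjusted p = 0.00069) in Double LKO. Psma7 had 110, 112, 102 and 117 CPM in HDAC3 LKO, 90.1, 91.7, 92 and 78.7 in SCAP LKO, 112, 114 and 113 in Double LKO, and 72.9, 81.1 and 88.7 as lowest, median and highest in GFP control livers. It was again higher in all livers without HDAC3, by 0.44 in HDAC3 LKO and 0.47 in Double LKO. Psma5 had 16.4, 14.3, 13.3 and 15.9 CPM in HDAC3 LKO, 6.78, 11.2, 9.37 and 11.5 in SCAP LKO, 17, 12.7 and 14.5 in Double LKO, and 7.58, 9.43 and 10.9 in GFP control livers. Its log2 fold change was 0.69 (SE 0.13) in HDAC3 LKO and 0.65 (SE 0.14) in Double LKO, and no library without HDAC3 overlapped the controls. Psma6, the alpha gene with the highest CPM in controls, had 124, 121, 107 and 116 CPM in HDAC3 LKO, 103, 84.1, 102 and 90.6 in SCAP LKO, 99.6, 117 and 115 in Double LKO, and 84.3, 89.1 and 99.6 in GFP control livers. Its HDAC3 LKO libraries all lay above control (log2 fold change 0.37), while 1 Double LKO library was level with the highest control (0.29). Psma2 and Psma4 did not pass in HDAC3 LKO (log2 differences 0.19 and 0.22, adjusted p = 0.116 and 0.114, edgeR).

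The beta ring holds the catalytic subunits, Psmb5 with chymotrypsin-like, Psmb6 with caspase-like and Psmb7 with trypsin-like activity, and in the immunoproteasome Psmb8, Psmb9 and Psmb10 take their places. The promoters of 4 of these genes are shown because constitutive genes rose with the loss of HDAC3 while their counterparts did not pass. Whether the pairs differ was not tested. In HDAC3 LKO the log2 differences of Psmb10 and Psmb8, 0.26 (SE 0.12) and 0.22 (SE 0.15), were close to that of Psmb6, 0.29 (SE 0.08). Each of the 4 has a motif match. The promoter entry of Psmb10, not shown, had no match to any motif searched, and Psmb7 had no entry. Each run has 300 bases of RefSeq sequence (GRCm38.p6), 250 before and 50 after the start, read 5′ to 3′ on the gene's strand. Psmb5 is at chr14:54617946-54618245 on the minus strand, Psmb6 at chr11:70525107-70525406 on the plus strand, Psmb8 at chr17:34197945-34198244 on the plus strand and Psmb9 at chr17:34187281-34187580 on the minus strand. Capitals mark the motif matches.
Psmb5: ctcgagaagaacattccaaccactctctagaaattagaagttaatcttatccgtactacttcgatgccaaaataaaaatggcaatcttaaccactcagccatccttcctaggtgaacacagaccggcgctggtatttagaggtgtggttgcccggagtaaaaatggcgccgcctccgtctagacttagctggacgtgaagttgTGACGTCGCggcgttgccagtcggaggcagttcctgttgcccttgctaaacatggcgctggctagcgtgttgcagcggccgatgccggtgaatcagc
Psmb6: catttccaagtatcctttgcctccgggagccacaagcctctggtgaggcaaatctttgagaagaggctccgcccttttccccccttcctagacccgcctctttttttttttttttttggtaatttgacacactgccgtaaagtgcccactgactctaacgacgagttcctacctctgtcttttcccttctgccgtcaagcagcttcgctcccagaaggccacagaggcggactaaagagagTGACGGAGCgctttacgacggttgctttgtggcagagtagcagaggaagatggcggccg
Psmb8: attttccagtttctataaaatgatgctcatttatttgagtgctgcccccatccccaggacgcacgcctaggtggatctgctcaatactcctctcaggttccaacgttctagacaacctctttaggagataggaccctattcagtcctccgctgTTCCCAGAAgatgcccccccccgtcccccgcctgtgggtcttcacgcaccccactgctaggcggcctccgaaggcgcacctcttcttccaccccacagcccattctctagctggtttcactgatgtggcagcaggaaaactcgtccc
Psmb9: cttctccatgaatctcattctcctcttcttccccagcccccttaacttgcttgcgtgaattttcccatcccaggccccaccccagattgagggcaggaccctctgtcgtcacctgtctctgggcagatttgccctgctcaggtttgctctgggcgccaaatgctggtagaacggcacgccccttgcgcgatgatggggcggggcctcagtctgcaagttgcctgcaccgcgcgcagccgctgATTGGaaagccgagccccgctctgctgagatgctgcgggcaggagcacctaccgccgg
In capitals Psmb5 and Psmb6 carry TGACNNNGC, the antioxidant-type element that NRF1 and NRF2 bind with small Maf proteins. Psmb8 carries TTCNNNGAA, the gamma-activated element, and Psmb9 carries CCAAT, on the other strand. Both strands were searched in 43 promoter entries of 40 of the 48 proteasome genes. TGACNNNGC was in 6 entries (14%, against 12.4% of 32851 promoters in the table), namely those of Psmb5, Psmb6, Psmc6, Psmd9, Psmd12 and Psme4. CCAAT was in 14 (32.6%, against 37.4%), the interferon-stimulated element GAAANNGAA in 7 (16.3%, against 8.56%), TTCNNNGAA in 3 (6.98%, against 8.3%) and the sterol regulatory element TCACNCCAC in 0 (against 1.24%). GAAANNGAA was in entries of Psmb3, Psmb4, Psmc2, Psmd4, Psmd9, Psme1 and Psmg4, and in no entry of an immunoproteasome gene. A match describes the letters only. Of the 6 genes with TGACNNNGC, Psmb5, Psmb6 and Psmd12 rose in both HDAC3 LKO and Double LKO livers and Psmc6, Psmd9 and Psme4 did not pass in either.

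The constitutive catalytic genes Psmb5, Psmb6 and Psmb7 passed in HDAC3 LKO and in Double LKO livers. In HDAC3 LKO the call of Psmb5 was lost in 5 of 20 other settings, among them without replicate 4 (0.34, adjusted p = 0.0631, edgeR), and that of Psmb6 in 7, among them without replicate 1 or 4 (0.25 and 0.28, adjusted p = 0.0836 and 0.0642). The call of Psmb7 was lost in 1, with HDAC3-floxed controls alone. In Double LKO the calls of Psmb6 and Psmb7 were each lost in 1 of 17 other settings. This was with double-floxed controls alone (0.40 and 0.41, adjusted p = 0.0622 and 0.065, edgeR). Psmb5 had 40.6, 36.2, 45.2 and 47.4 CPM in HDAC3 LKO, 30.5, 37.3, 35.9 and 30.9 in SCAP LKO, 49.2, 44.3 and 45.3 in Double LKO, and 27.2, 31.5 and 36.6 as lowest, median and highest in GFP control livers. One HDAC3 LKO library lay within the control range and the Double LKO libraries were all above it, at log2 fold changes of 0.40 (SE 0.10, edgeR adjusted p = 0.0132) in HDAC3 LKO and 0.53 (SE 0.11, adjusted p = 0.00268) in Double LKO. Psmb6 had 123, 114, 104 and 116 CPM in HDAC3 LKO, 103, 95.8, 108 and 96.9 in SCAP LKO, 129, 131 and 124 in Double LKO, and 79.8, 94.9 and 108 in GFP control livers. Its differences were 0.29 in HDAC3 LKO and 0.45 in Double LKO, with overlap of 1 HDAC3 LKO library and none of Double LKO. Psmb7 had 155, 131, 148 and 139 CPM in HDAC3 LKO, 119, 99.3, 127 and 111 in SCAP LKO, 139, 152 and 154 in Double LKO, and 95.5, 109 and 117 in GFP control livers. No library without HDAC3 overlapped the controls, and the differences were 0.41 and 0.46 in HDAC3 LKO and Double LKO livers. Psmb4, a beta subunit without a proteolytic site and the beta gene with the highest control CPM, had 184, 156, 140 and 161 CPM in HDAC3 LKO, 138, 127, 148 and 138 in SCAP LKO, 162, 146 and 169 in Double LKO, and 118, 124 and 144 in GFP control livers. It rose by 0.35 in HDAC3 LKO, with 1 library inside the control range, and by 0.34 in Double LKO livers, with none. Psmb3 also rose in both, and Psmb1 and Psmb2 passed in neither.

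The immunoproteasome genes did not pass against GFP control in any knockout by the edgeR test. Psmb10 in Double LKO was called by limma voom (0.35, adjusted p = 0.0189) and, by edgeR, without Double LKO library 2 and SCAP LKO replicate 4 together (0.35, adjusted p = 0.0446). Psmb8 had 28.9, 28.9, 28.8 and 24.8 CPM in HDAC3 LKO, 21.1, 20.1, 19.8 and 36.3 in SCAP LKO, 20.7, 24.5 and 25.7 in Double LKO, and 19.6, 23.7 and 28.3 in GFP control livers. SCAP LKO replicate 4 stood above every other library, and without it the log2 difference of SCAP LKO was -0.24, against 0.04 with it. Psmb9 had 13.6, 14.9, 11.8 and 9.15 CPM in HDAC3 LKO, 7.51, 9.52, 6.67 and 10.4 in SCAP LKO, 7.36, 11.4 and 8.84 in Double LKO, and 10.4, 11.6 and 15.9 in GFP control livers. HDAC3 LKO overlapped control (log2 difference 0.03), and most SCAP LKO and Double LKO libraries were low (-0.53, adjusted p = 0.211, and -0.40, adjusted p = 0.157, edgeR). Psmb10 had 52.4, 65.9, 50.2 and 47 CPM in HDAC3 LKO, 37.8, 35.1, 33 and 48.5 in SCAP LKO, 44.6, 57.7 and 58.5 in Double LKO, and 38.4, 46 and 49.3 in GFP control livers. Its log2 differences from control were 0.26 for HDAC3 LKO, -0.22 for SCAP LKO and 0.26 for Double LKO. Without SCAP LKO replicate 4, Psmb9 and Psmb10 of SCAP LKO stood at -0.67 (adjusted p = 0.156, edgeR) and -0.37 (adjusted p = 0.25). Set against its counterpart in the same library, Psmb9 stood at 10.9 ± 2.17 per 100 of Psmb6 in HDAC3 LKO (SD, n = 4), 8.55 ± 2.17 in SCAP LKO (n = 4), 7.18 ± 1.48 in Double LKO (n = 3) and 13 ± 2.01 in GFP control livers (n = 6), a CPM ratio not corrected for gene length. The SCAP LKO (6.18 to 10.8) and Double LKO (5.72 to 8.68) libraries all lay below the controls (11.3 to 16.2) in this ratio. The ratio was not tested. In SCAP LKO neither gene passed (adjusted p = 0.211 for Psmb9 and 0.702 for Psmb6, edgeR), and Psmb9 had 31, 35, 52 and 82 counts. Psmb8 per 100 of Psmb5 lay between 52.4 and 79.8 in HDAC3 LKO, 54 and 117 in SCAP LKO, 42.1 and 56.7 in Double LKO, and 59.3 and 98.5 in GFP control livers. Psmb10 per 100 of Psmb7 lay between 33.8 and 50.2 in HDAC3 LKO, 25.9 and 43.7 in SCAP LKO, 32.1 and 38.1 in Double LKO, and 38.8 and 47.3 in GFP control livers. In both ratios the Double LKO libraries lay below all controls, and the HDAC3 LKO and SCAP LKO libraries overlapped them. Summed lymphocyte markers, 10 genes of which 1 was tested and not called, were at 17.3 to 30 CPM in HDAC3 LKO livers, 17.7 to 34.1 in SCAP LKO, 17.7 to 29.2 in Double LKO and 17.5 to 27.5 in GFP control livers. The 34.1 was in SCAP LKO replicate 4, and its part in the result was not tested.

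**Figure D3:**
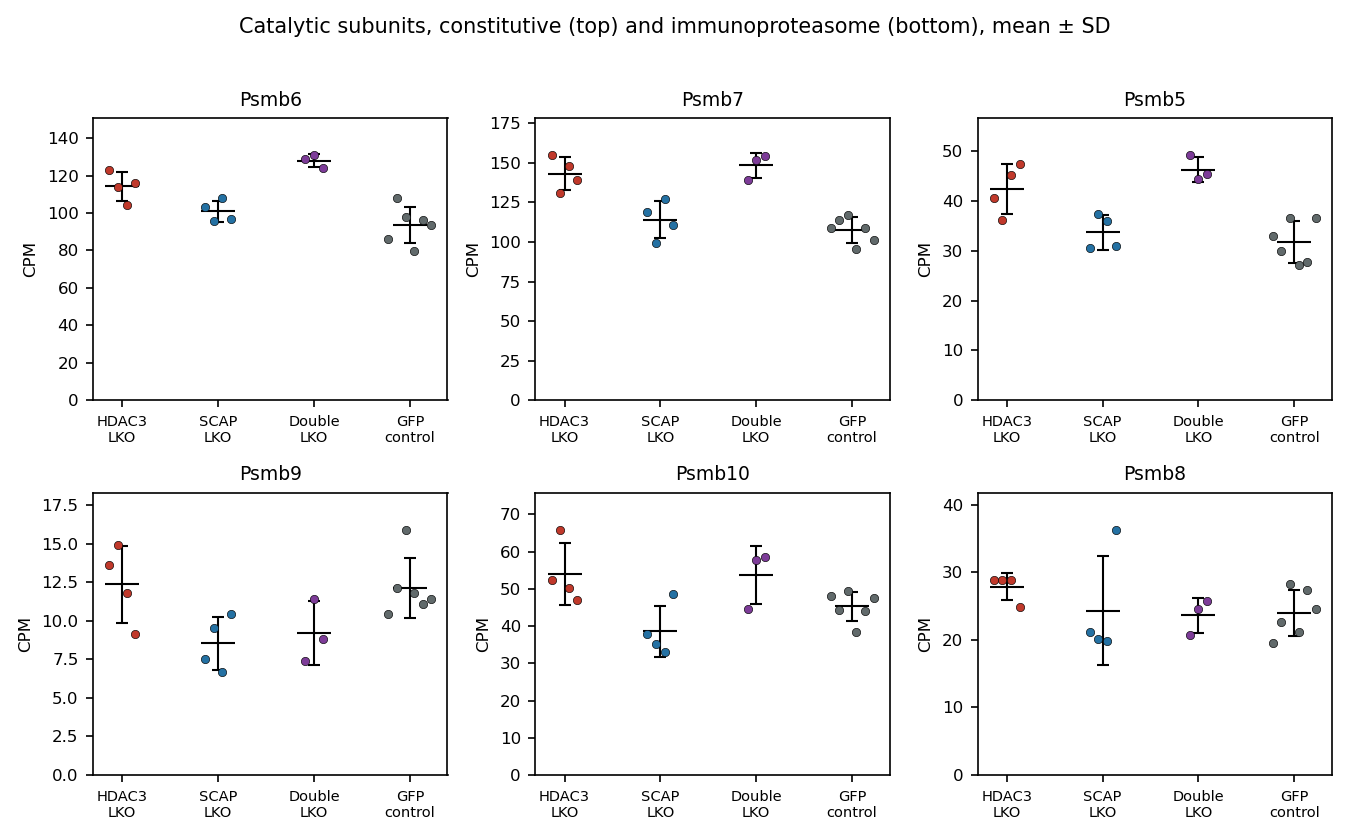
CPM of the constitutive catalytic subunits Psmb6, Psmb7 and Psmb5 and of their immunoproteasome counterparts Psmb9, Psmb10 and Psmb8 is shown by library with mean and SD. The constitutive genes are higher in livers without HDAC3 (Psmb7 131 to 155 CPM in HDAC3 LKO and 139 to 154 in Double LKO, against 95.5 to 117 in GFP controls), and SCAP LKO replicate 4 is the point at 36.3 CPM of Psmb8.

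Of 20 genes of interferon response and antigen presentation, 4 rose in HDAC3 LKO (H2-K1, Irf1, Ifi47 and Igtp) and 16 did not pass. Over all genes 7.88% rose in HDAC3 LKO. In Double LKO 1 of the 20 rose (Irf1), where 7.56% of all genes rose. In SCAP LKO 1 fell (H2-K1), where 1.19% of all genes passed in either direction. H2-K1, a class I antigen-presenting molecule, had a log2 fold change of 0.35 in HDAC3 LKO (SE 0.10, edgeR adjusted p = 0.0238) and -0.59 in SCAP LKO (SE 0.10, adjusted p = 0.00204). Irf1, the transcription factor that drives the immunoproteasome genes, was at 0.39 (SE 0.10, adjusted p = 0.0116) in HDAC3 LKO and 0.57 (SE 0.11, adjusted p = 0.00102) in Double LKO. The interferon-induced GTPase genes Igtp and Ifi47 were at 0.83 and 0.70 in HDAC3 LKO (adjusted p = 0.0228 and 0.0482). B2m, the partner chain of class I and the most expressed gene of the list that did not pass in any knockout, had log2 differences of 0.08 for HDAC3 LKO, -0.13 for SCAP LKO and -0.04 for Double LKO over control. SCAP LKO replicate 4 was the highest of its group in 18 of the 20 genes, and also in Psmb8, Psmb9 and Psmb10. Double LKO library 2 was the highest of its group in 13 of the 20 and the lowest in 5. In Psmb8, Psmb9 and Psmb10 it was the lowest of its group.

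In the base of the cap, 4 of 6 ATPase genes rose in HDAC3 LKO (Psmc1, Psmc3, Psmc4 and Psmc5) and 5 in Double LKO, with Psmc2 added. Psmc3, the ATPase gene with the highest control CPM, had 166, 157, 153 and 150 CPM in HDAC3 LKO, 128, 124, 136 and 128 in SCAP LKO, 168, 155 and 158 in Double LKO, and 109, 118 and 139 in GFP control livers. The groups without HDAC3 did not overlap the controls, at 0.38 (SE 0.08, edgeR adjusted p = 0.00262) in HDAC3 LKO and 0.41 (SE 0.08, adjusted p = 0.00242) in Double LKO. Psmc5 had 70.3, 62.3, 69.3 and 64.9 CPM in HDAC3 LKO, 63.2, 60.1, 66 and 68.1 in SCAP LKO, 85.5, 73.6 and 73.6 in Double LKO, and 48.6, 57 and 60.4 in GFP control livers. No library without HDAC3 overlapped the controls, at 0.26 in HDAC3 LKO and 0.48 in Double LKO, and SCAP LKO stood at 0.22 (adjusted p = 0.272, edgeR). The HDAC3 LKO call of Psmc5 (adjusted p = 0.0272) was lost in 10 of 20 other settings, with adjusted p up to 0.325. These included leaving out HDAC3 LKO replicate 1, 3 or 4 (0.24, 0.25 and 0.28), HDAC3-floxed control replicate 2 (0.23) or SCAP-floxed control library 1 (0.24). The difference between Double LKO and HDAC3 LKO in this gene, 0.21, did not pass (adjusted p = 0.381). Psmc6 passed in neither knockout (0.24 in HDAC3 LKO and 0.20 in Double LKO).

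Among 11 non-ATPase subunit genes 8 rose in HDAC3 LKO and 10 in Double LKO, and the one that passed in neither was Psmd7, the inactive partner of the deubiquitinase (0.01 and 0.11). Psmd4 had 140, 133, 133 and 135 CPM in HDAC3 LKO, 88.4, 96.8, 92.9 and 102 in SCAP LKO, 140, 129 and 133 in Double LKO, and 82, 89.8 and 111 in GFP control livers. The libraries without HDAC3 were all above every other library, and the log2 fold change was 0.57 (SE 0.08, edgeR adjusted p = 8.85e-05) in HDAC3 LKO and 0.55 (SE 0.09, adjusted p = 0.00021) in Double LKO. Psmd2, a cap scaffold and the non-ATPase gene with the highest control CPM, had 184, 168, 183 and 182 CPM in HDAC3 LKO, 149, 136, 153 and 145 in SCAP LKO, 194, 176 and 177 in Double LKO, and 135, 144 and 155 in GFP control livers. These counts are those of a non-coding RefSeq transcript of Psmd2, the one marked by the authors, and the coding transcript differed from it by 0 to 3 counts in a library, so reads of both cannot be told apart. They were higher by 0.31 and 0.33 in HDAC3 LKO and Double LKO livers without overlap. Psmd12, a lid subunit, had 87, 90, 89.8 and 82.6 CPM in HDAC3 LKO, 70.5, 72.1, 77.6 and 68.1 in SCAP LKO, 91.8, 92.9 and 93.8 in Double LKO, and 63.5, 68.7 and 76.4 in GFP control livers. It was at 0.34 and 0.43 over control, again without overlap. Psmd11, a lid subunit whose level limits 26S assembly in human cells, had 35.6, 34.2, 38.6 and 34.8 CPM in HDAC3 LKO, 27.1, 28, 23.6 and 27.1 in SCAP LKO, 46, 40.7 and 37.7 in Double LKO, and 22.7, 26.6 and 31.8 in GFP control livers. Its log2 fold change was 0.43 (SE 0.09) in HDAC3 LKO and 0.64 (SE 0.10, adjusted p = 0.000215) in Double LKO. Psmd14, the deubiquitinase of the lid, rose by 0.50 in HDAC3 LKO and by 0.44 in Double LKO livers.

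The call for Psmd8, a lid subunit, rested in size on 1 library. It had 139, 115, 131 and 136 CPM in HDAC3 LKO, 110, 107, 113 and 117 in SCAP LKO, 251, 127 and 127 in Double LKO, and 91.3, 95.9 and 110 in GFP control livers. The value of 251 was in Double LKO library 2, and all libraries without HDAC3 lay above the controls. The log2 fold change in Double LKO was 0.75 (SE 0.16, edgeR adjusted p = 0.00261), and 0.36 without library 2, still called (adjusted p = 0.0115). In HDAC3 LKO it was 0.39 (adjusted p = 0.0828).

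Of 4 activator genes only Psme1 passed, in HDAC3 LKO and in Double LKO livers. Psme1, a subunit of the 11S activator that opens the core, had 126, 117, 105 and 126 CPM in HDAC3 LKO, 83.8, 77.3, 82.8 and 94.1 in SCAP LKO, 117, 119 and 118 in Double LKO, and 75.5, 83.2 and 88.4 in GFP control livers. All 7 libraries without HDAC3 were above all others, at 0.52 (SE 0.07, edgeR adjusted p = 9.22e-05) in HDAC3 LKO and 0.51 (SE 0.08, adjusted p = 0.000197) in Double LKO. Its partner Psme2 had 3.89, 4.79, 3.32 and 5.09 CPM in HDAC3 LKO, 7.26, 4.35, 2.82 and 3.82 in SCAP LKO, 2.99, 3.71 and 3.49 in Double LKO, and 2.99, 3.18 and 3.79 in GFP control livers. Its groups overlapped, and its values are uncertain because the mouse genome holds near-identical copies that could take part of its reads. Psme4, the nuclear activator, stood at 232, 205, 263 and 229 CPM in HDAC3 LKO, 240, 233, 270 and 235 in SCAP LKO, 229, 226 and 225 in Double LKO, and 221, 227 and 237 in GFP control livers, with log2 differences of 0.02, 0.10 and -0.01. The groups of Psme4 overlapped.

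None of the 3 tested 19S assembly chaperones, which build the ATPase ring, passed in a knockout against control. Psmd5, the one with the highest control CPM, had 39.7, 38, 39.2 and 40.1 CPM in HDAC3 LKO, 36.8, 39.4, 44.8 and 48 in SCAP LKO, 44.6, 35.7 and 41 in Double LKO, and 35.5, 40.3 and 45.9 in GFP control livers, and all groups overlapped. Psmf1, which encodes an inhibitor of the core, had 28.5, 31.4, 37.5 and 31.5 CPM in HDAC3 LKO, 27.1, 19.3, 23.5 and 23 in SCAP LKO, 30.6, 32.6 and 26.5 in Double LKO, and 24.6, 27.3 and 31 in GFP control livers. Its log2 differences from control were 0.21, -0.25 and 0.10 in that order of knockouts, none of which passed. Of the 20S assembly chaperones, Psmg1, the one with the highest control CPM, had 23.9, 17, 23.6 and 18.1 CPM in HDAC3 LKO, 18.9, 16.9, 20.3 and 20.4 in SCAP LKO, 18.4, 19.2 and 18.6 in Double LKO, and 14.6, 19.5 and 21.4 in GFP control livers. Its groups overlapped. Psmg4 passed in Double LKO (log2 fold change 0.70, SE 0.19, adjusted p = 0.0186). It had 7.77, 5.73, 4.98 and 5.49 CPM in HDAC3 LKO, 2.66, 5.17, 3.59 and 5.35 in SCAP LKO, 10.8, 8.66 and 6.82 in Double LKO, and 4.18, 5.45 and 6.17 in GFP control livers, from 11 to 135 counts in a library. Only the Double LKO libraries all lay above the controls. It was not called without Double LKO library 2 (0.56, adjusted p = 0.0731, edgeR) or library 3 (0.69, adjusted p = 0.056).

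**Figure D4:**
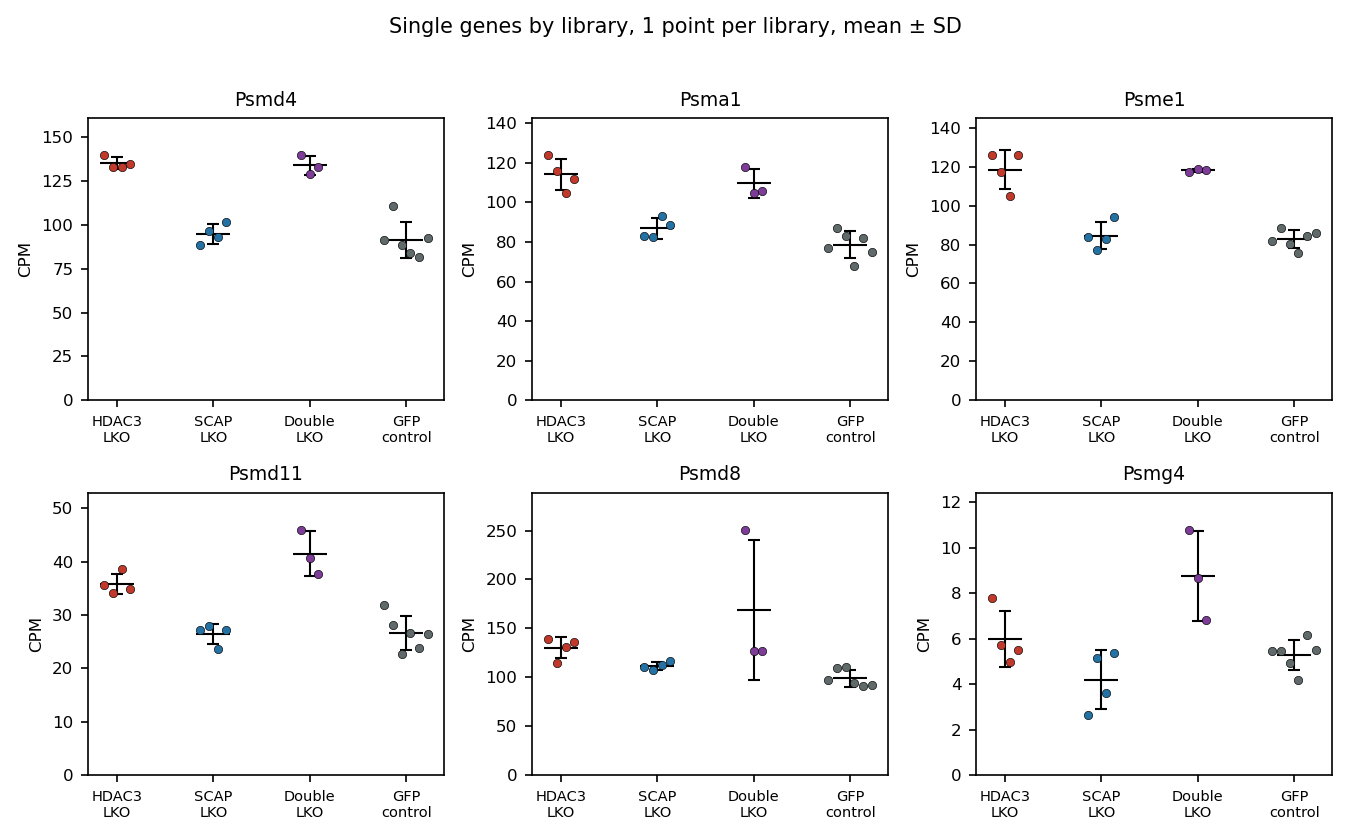
CPM of Psmd4, Psma1, Psme1, Psmd11, Psmd8 and Psmg4 is shown by library for HDAC3 LKO, SCAP LKO, Double LKO and GFP control livers with mean and SD. Psme1 is at 105 to 126 CPM in HDAC3 LKO and 117 to 119 in Double LKO, against 75.5 to 88.4 in GFP controls, and Psmd8 has 1 Double LKO library at 251 CPM.

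The knockouts were also set against each other. Double LKO and SCAP LKO livers have Cre on both sides and differ by HDAC3 and by floxed line. In Double LKO over SCAP LKO livers 19 of 46 members rose and none fell, where 4.98% of all genes rose. In HDAC3 LKO over SCAP LKO livers, a comparison added after the other results were seen, 17 rose and none fell, where 8.52% of all genes rose. Gene loss and floxed line cannot be told apart in either comparison. The members' median log2 differences were 0.27 and 0.26, against -0.02 over all genes in each comparison. The 26S subunits gave 16 of the 19 calls and 14 of the 17, and Psme1 and Psmb10 passed in both, with Psmg4 added in Double LKO over SCAP LKO and Psmf1 in HDAC3 LKO over SCAP LKO. Psme1 differed by 0.48 (SE 0.09, edgeR adjusted p = 0.00156) in Double LKO over SCAP LKO and by 0.49 (SE 0.08, adjusted p = 0.000449) in HDAC3 LKO over SCAP LKO. Psmb10 differed by 0.48 in each, at adjusted p = 0.0415 and 0.0198 (edgeR), but both calls hung on single libraries. In Double LKO over SCAP LKO it was not called without Double LKO library 3 or 4 (0.44 and 0.41, adjusted p = 0.122 and 0.149) or without SCAP LKO replicate 1, 2 or 3 (0.47, 0.44 and 0.40, adjusted p = 0.0856, 0.105 and 0.131). In HDAC3 LKO over SCAP LKO it was not called without HDAC3 LKO replicate 2 (0.37, adjusted p = 0.0819) or SCAP LKO replicate 2 or 3 (0.44 and 0.40, adjusted p = 0.0585 and 0.0742). Psmg4 differed by 1.00 (SE 0.22, adjusted p = 0.00812, edgeR) in Double LKO over SCAP LKO. Psmd8 differed by 0.18 in Double LKO over SCAP LKO without Double LKO library 2 (adjusted p = 0.297). Scaled by library size, 8 and 2 members passed (with the median of all genes in HDAC3 LKO over SCAP LKO at -0.16), and the share of all calls that were higher was 47.4% and 29.9%, against 598 higher and 361 lower calls and 1023 higher and 738 lower calls with TMM. The first count was 12 without Double LKO library 2, 8 without Double LKO library 4, and 11, 9 and 12 without SCAP LKO replicate 1, 2 and 4, and the second was 10 without SCAP LKO replicate 2.

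Between Double LKO and HDAC3 LKO livers none of the 46 members passed (edgeR, adjusted p under 0.05), where 1.31% of all genes did, with a median log2 difference of -0.01, and 4 had an unadjusted p under 0.05. The test of the interaction, which asks whether the double knockout differs from what both single knockouts add up to in log2, called 0 members and 0% of all genes, with 2 members and 601 genes at an unadjusted p under 0.05. DESeq2 and voom called 0 members between Double LKO and HDAC3 LKO. For the interaction voom called 0 as well, and DESeq2, which called 0, gave an adjusted p for 11 members only.

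The other genes of the pathway came from lists outside the name rule. Of 23 genes that assist or feed the proteasome 5 rose in HDAC3 LKO (Vcp, Ubqln4, Pomp, Ubqln1 and Nploc4) and 18 did not pass. Over all genes 7.88% rose in that comparison. Vcp, the unfolding ATPase that delivers substrates, had 90.9, 82.4, 105 and 95.8 CPM in HDAC3 LKO, against 63.3, 74.1 and 77.4 as lowest, median and highest in GFP control livers. Its log2 fold change was 0.36 (SE 0.09, edgeR adjusted p = 0.00862), and no library overlapped. Pomp, the assembly factor of the 20S core, was at 0.33 (adjusted p = 0.0299). In Double LKO the genes that rose included Ubb, Ubqln4 and Zfand5, and Ube3a fell, with the ubiquitin gene Ubb at 0.47 (SE 0.10, adjusted p = 0.00252), and in SCAP LKO none of the 23 passed. Of 10 genes that regulate proteasome genes, Mafk, a small Maf partner of NRF1 and NRF2, rose in HDAC3 LKO (0.50, SE 0.14, adjusted p = 0.0209) and in Double LKO (0.47, SE 0.15, adjusted p = 0.0381), where Nfyb, a subunit of the CCAAT-binding factor, rose too (0.46, SE 0.10, adjusted p = 0.00551). Nfe2l1 had 167, 137, 170 and 169 CPM in HDAC3 LKO, 131, 124, 128 and 109 in SCAP LKO, 112, 171 and 151 in Double LKO, and 130, 141 and 149 in GFP control livers. Its groups overlapped, with log2 differences of 0.20, -0.19 and 0.05 from control that did not pass. In Double LKO the 112 was in library 2, and libraries 3 and 4 lay above the highest control. In HDAC3 LKO over SCAP LKO, where 8.52% of all genes rose, 4 of the 10 regulators were higher. Nfe2l1 was 1 of them (0.39, adjusted p = 0.0255, edgeR). The others were Mafk (0.88, adjusted p = 0.000926), Nfe2l2, which encodes NRF2 (0.34, adjusted p = 0.0483), and Ngly1, the enzyme that removes sugar chains from NRF1 (0.23, adjusted p = 0.0424).

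In the authors' deposited table, 9 of the 49 members had an FDR under 0.05 for the HDAC3 knockout, none for the SCAP knockout and 4 for the double knockout, among 1278, 231 and 674 of 22869 genes. The median log2 fold changes of the members in the authors' deposited table were 0.25, -0.03 and 0.34 for the same knockouts.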

How the data were processed

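RNA libraries of mouse liver, 17 in all, were used, and the 10 chromatin samples of the series were not analysed here. The deposited table gives whole-number read counts per RefSeq transcript, not normalized by the authors, as the values show. Per the file headers, it also holds the authors' log2 fold changes and FDR values (adjusted p-values). The submitters' processing notes name Bowtie, HOMER, edgeR and mm9. The sources used here do not give the RNA aligner or whether strand was counted. Another 17 per-sample columns stayed unused.

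Of 28644 transcripts the 1 per gene marked by the authors was used, 22869 in all. The test used edgeR 4.0.16 (R 4.3.3) in 1 fit of 4 groups with TMM, filterByExpr (12009 genes) and the quasi-likelihood F-test, called at a Benjamini-Hochberg adjusted p under 0.05 over all genes. The SE was worked back from the F statistic. Alternatives used DESeq2 1.42.0 and limma 3.58.1 (voom), other scaling, filters, controls and libraries. The 30 pairs of libraries within groups differed by a chi-square of 2.859 to 40.94 per degree of freedom. Since no label says that libraries come from separate mice, the p-values cover only the spread among libraries, which may be technical. CPM are not per length. The highest control CPM served only to choose which gene of a class or list to name and does not rank transcript levels.

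The members and lists were chosen with earlier results of these data known. Every member was counted. Named with their values were the 8 called members with the lowest p in each knockout against control, the catalytic and immunoproteasome subunits, Psme1, Psme2, the member of each class with the highest control CPM, and up to 4 called genes of each other list with the most expressed that did not pass. Some results on the genes that assist the proteasome are not reported here. Psmd8, Psmg4, Psmc6, Psmd7, Psmd14 and Nfe2l1 were described with their values after these were seen where they fall outside the rule. The HDAC3 LKO over SCAP LKO comparison was added later. Peaks at gene starts and protein sequences were not used, since no gene positions on mm9 and no protein table were at hand.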

Additional observations from a re-analysis of the deposited data

Results flagged for a closer look

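Within a group, 10 of 141 sets of values (46 members and the 26S sum in HDAC3 LKO, SCAP LKO and GFP control livers) had a highest or lowest library far from the rest by Dixon's criterion, which chance meets in about 1 of 20 groups. In HDAC3 LKO, Psmb8 was low in replicate 4 (24.8 CPM against 28.8 to 28.9), Psmd2 low in replicate 2 (168 against 182 to 184), Psmc6 high in replicate 1 (101 against 88.2 to 89.9) and Psmd7 high in replicate 3 (42.7 against 34.2 to 34.7). In SCAP LKO, Psmb8 was high in replicate 4 (36.3 against 19.8 to 21.1) and Psma7 low in the same replicate (78.7 against 90.1 to 92), while Psmc2 and Psme3 were high in replicate 3 (71.6 against 58.8 to 59.8, and 62.5 against 54.7 to 55.6). In GFP control livers, Psmb9 was high in HDAC3-floxed replicate 1 (15.9 against 10.4 to 12.1) and Psmd4 high in double-floxed library 2 (111 against 82 to 92.7).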

How the results depend on the processing

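No member reversed its direction in any call. In HDAC3 LKO against GFP control the count of 23 was 7 with HDAC3-floxed controls alone, 9 with library size scaling and 12 with only the 10 libraries tied to numbered samples. In those 10 libraries a replicate block gave 7. Equal numbers did not pair the samples, with correlations of deviations from -0.061 to 0.108, and the block left the HDAC3 LKO over SCAP LKO count at 15 and the SCAP LKO count at 0. For Double LKO, 27 became 12 with double-floxed controls alone, and library size scaling added a fall of Psmd9 (-0.33, adjusted p = 0.0226, edgeR). For Double LKO over SCAP LKO, 19 became 8 with library size scaling and 11 without Double LKO library 2 and SCAP LKO replicate 4 together, and for HDAC3 LKO over SCAP LKO, 17 became 2 with library size scaling and 11 with no filter. Fewer libraries entered some of these fits. Leaving out 1 library at a time gave 17 to 24 for HDAC3 LKO, 19 to 28 for Double LKO, 8 to 15 for Double LKO over SCAP LKO, 10 to 17 for HDAC3 LKO over SCAP LKO and 0 elsewhere. In all alternatives run, 4 members stayed called in HDAC3 LKO (Psma1, Psma7, Psmd4 and Psme1) and 11 in Double LKO livers. Without SCAP LKO replicate 4, Psmb8 and Psmb9 passed in HDAC3 LKO over SCAP LKO (0.46, adjusted p = 0.0286, and 0.70, adjusted p = 0.0396, edgeR). Peaks at member starts and protein identity were not run.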

Other observations

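The interferon genes set SCAP LKO replicate 4 apart from its group along with Psmb8. Igtp, an interferon-induced GTPase, was at 53.8 CPM in this library, against 17.4, 22.6 and 20.5 in the other SCAP LKO livers. Cxcl9, a chemokine that attracts T cells, was at 15.8 CPM, against 1.94, 5.98 and 4.75, and Tap1, a peptide transporter of antigen presentation, at 33.6 CPM, against 16.9, 17.7 and 14.4. These genes were picked after their values were seen.

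The genes that stayed out of the tests were near 0. Psma8 had 106 counts over all 17 libraries, Psmb11 had 1 and Psmc3ip had 131.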
